A study of Mus musculus with 9 samples.

Results

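The genes described here encode 5 membrane-anchored metalloproteases of the ADAM family: Adam8, Adam9, Adam10, Adam15 and Adam17. They were taken by name, as ADAM genes known to cut other membrane proteins and not as a full set of such genes. The deposited expression table held 12339 genes, and all 5 passed the filter on low reads. The study sequenced RNA of KP-GFP cells, mouse lung tumour cells of strain C57BL/6 that carry GFP, after sorting them by their fluorescence from dissociated spheroids, in 9 libraries that form 3 groups of 3. The groups were tumour cells grown with lung tissue-resident macrophages (TRMs, here alveolar macrophages), tumour cells grown with bone-marrow monocytes, and tumour cells grown alone. Every spheroid was seeded with 2500 tumour cells. The co-cultures received 5000 TRMs or 5000 monocytes in addition, and all spheroids were kept for 7 days. The labels do not spell out the letters KP, nor say whether the tumour cells are a single clone or which animals gave the added cells. For each condition 32 spheroids were pooled before the sort. The comparisons ask what each added population did to the RNA of the tumour cells.

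ADAM proteases sit in the cell membrane and cut neighbouring membrane proteins just outside it, which is called shedding: growth factors and cytokines are set free, receptors are removed, and adhesion proteins are cut. They are made as inactive precursors, lose a pro-domain on the way to the surface, and depend on partner proteins for transport, so RNA levels give no protease activity. In lung tumours ADAM-cut ligands of the EGF receptor are a known source of growth signals.

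All 5 members keep the zinc-binding site of the active enzyme, which separates them from ADAM proteins that have lost cleavage. The coding sequence of that site is shown for each member because the protein needs the site to cut. Capitals mark the codons of the 3 histidines that hold zinc and of the catalytic glutamate, 5′ to 3′ on the coding strand of GRCm38 (mm10), from the GENCODE M21 transcripts.
Adam8: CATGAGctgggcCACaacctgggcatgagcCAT
Adam9: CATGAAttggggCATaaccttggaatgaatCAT
Adam15: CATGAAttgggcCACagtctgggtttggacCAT
Adam10: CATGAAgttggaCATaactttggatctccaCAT
Adam17: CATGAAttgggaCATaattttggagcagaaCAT
Of these 33 bases, 25 were identical to Adam8 in both Adam9 and Adam15, against 19 in both Adam10 and Adam17. The site lies in exon 11 of 24 in Adam8 (chr7:139987893-139987925, minus strand) and in exon 11 of 22 in Adam9 (chr8:24990326-24990358, minus strand). It lies in exon 11 of 23 in Adam15 (chr3:89344780-89344812, minus strand) and in exon 12 of 20 in Adam17 (chr12:21336732-21336764, minus strand). In Adam10 an intron splits it between exons 9 and 10 of 16 (chr9:70754296-70761585, plus strand).

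The libraries held 16001895 to 32771448 reads in genes, and values are given as CPM (reads scaled to a common library size by TMM). Whether replicates are separate cultures is not stated, and the p-values therefore cover just the spread among these libraries, which may be technical. On a principal component analysis, monocyte replicate 3 stood apart on the second component at 75.9, with the other libraries between -50.3 and 32.9. TRM replicate 1 lay at -12.1 on the first component, between the cells grown alone (-80.8 to -44.4) and the other co-culture libraries (26.9 to 51.0). The epithelial markers Epcam, Krt8, Krt18, Krt19, Cdh1 and Cldn4 summed to 12860 to 15900 CPM with TRMs, 9172 to 14090 CPM with monocytes and 13140 to 14910 CPM alone, so epithelial genes were abundant in every library.

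Adam9 was by far the most abundant member. Per kilobase of the longest coding transcript it averaged 112 ± 22.6 CPM per kb with TRMs, 115 ± 4.77 with monocytes and 79.8 ± 3.86 alone (SD, n = 3 each). Adam15 followed, at 35.6 ± 2.32 CPM per kb with TRMs, 42.6 ± 5.62 with monocytes and 28.3 ± 1.75 alone. Adam10 stood at 28.0 ± 4.97, 24.9 ± 4.81 and 27.8 ± 2.51 CPM per kb in the same groups, and in the cells grown alone it did not differ from Adam15 beyond their spread. Adam17 stood at 23.1 ± 0.24, 20.7 ± 1.82 and 19.6 ± 2.10 CPM per kb, and Adam8 was lowest at 12.8 ± 2.80, 6.12 ± 1.77 and 4.02 ± 1.56 CPM per kb. Adam9 was first, Adam17 next to last and Adam8 last in each of the 9 libraries. The places of Adam15 and Adam10 depended on the length used: with all exons of a gene joined, Adam10 stood above Adam15 in 8 of 9 libraries.

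**Figure D1:**
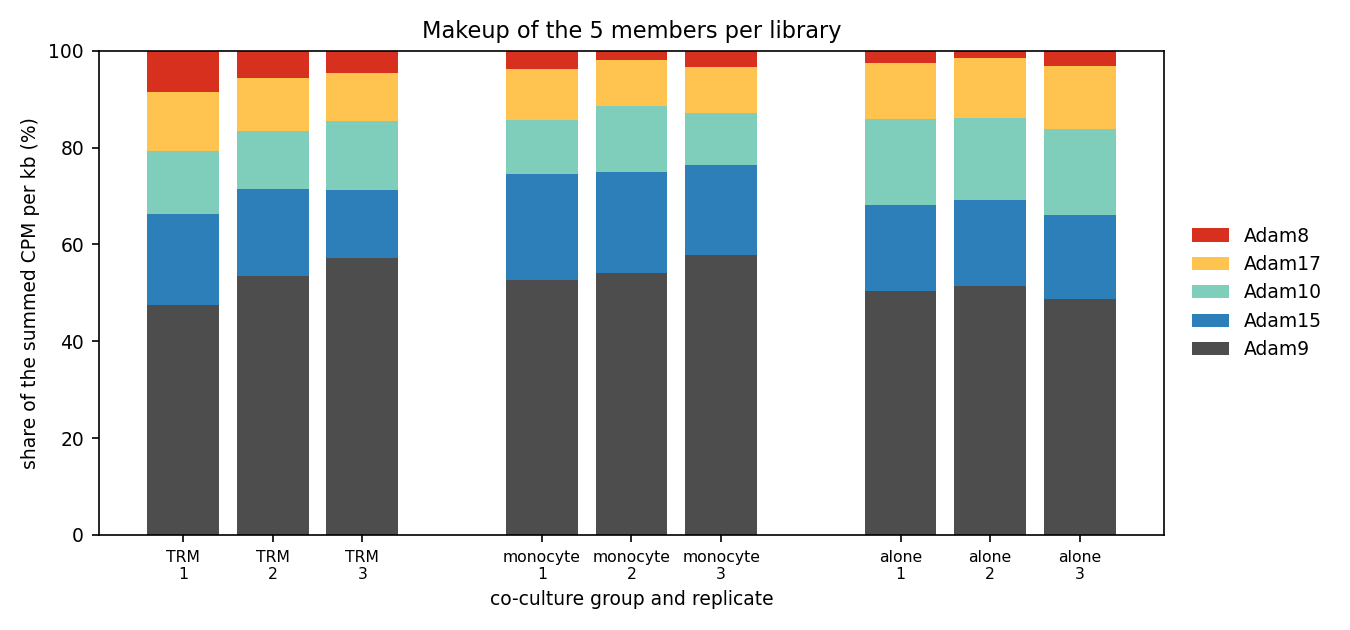
Share of each member (%) in the summed CPM per kb of the 5 members, for every library, with TRM, monocyte and alone libraries from left to right. Adam9 holds the largest block in all bars (47.4 to 57.9%), and the Adam8 block at the top is widest in the TRM libraries (4.49 to 8.46%).

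The members' summed level was 211.7 ± 23.6 CPM per kb with TRMs, 208.7 ± 13.1 with monocytes and 159.5 ± 11.3 alone (SD, n = 3 each). Adam9 made up 52.7 ± 4.90% of it with TRMs, 54.9 ± 2.67% with monocytes and 50.1 ± 1.34% alone. Adam8 made up 6.19 ± 2.04% with TRMs, 2.96 ± 0.93% with monocytes and 2.48 ± 0.82% alone. Adam10 made up 13.2 ± 1.12% with TRMs, 11.9 ± 1.59% with monocytes and 17.4 ± 0.37% alone, so its share was lower in every co-culture library although its own level was not called different. These shares are descriptions and were not tested.

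**Figure D2:**
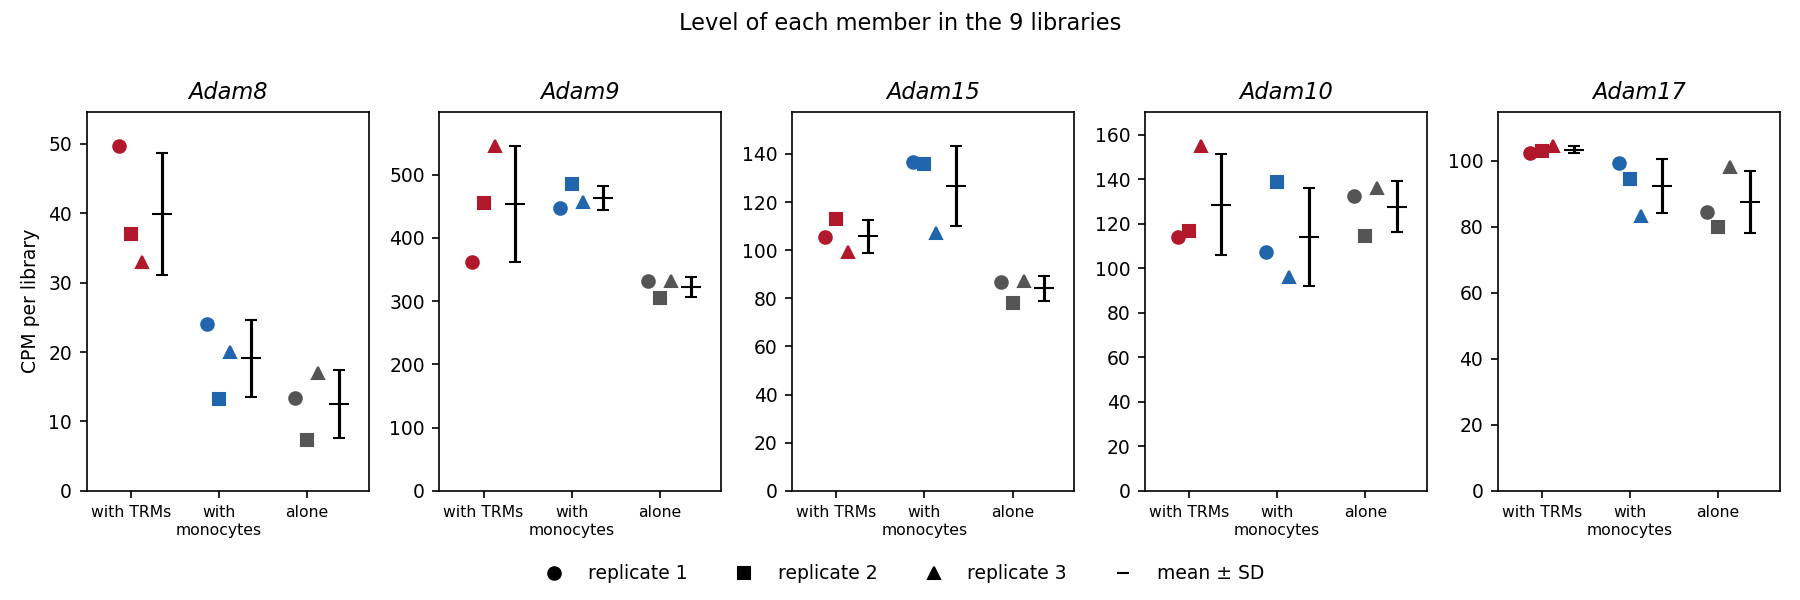
CPM of each member in each library (symbols by replicate number), with TRM, monocyte and alone libraries from left to right in each panel and mean ± SD beside them. The 3 TRM libraries lie above all others for Adam8, both co-cultures lie above alone for Adam9 and Adam15, and all groups overlap for Adam10.

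With TRMs, Adam8 and Adam9 rose among the 5 members and none fell, where 18.4% of all 12326 genes tested were called in either direction, 10.2% higher and 8.15% lower. Calls were made in limma, where the Benjamini-Hochberg adjusted p over all genes had to be under 0.05. Of the members, 4 (all but Adam10) had TRM libraries wholly above the libraries of cells grown alone, which 20.8% of all genes did. No member fell by edgeR or DESeq2 either, nor at an unadjusted p under 0.05, in this or the monocyte comparison. In bulk RNA, fewer cells of a type and less RNA per cell cannot be told apart.

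Adam8, a protease first known from leukocytes and also expressed in tumours (ENSMUSG00000025473, chr7:139978932-139992562, minus strand), had 49.7, 37.0 and 33.0 CPM in TRM replicates 1 to 3. It had 24.1, 13.2 and 20.0 CPM in the monocyte replicates and 13.3, 7.31 and 16.9 CPM in the replicates grown alone. All TRM libraries were above all others, and the monocyte libraries overlapped those grown alone. Adam8 averaged 39.9 ± 8.73 CPM with TRMs against 12.5 ± 4.86 CPM alone (SD, n = 3 each), 3.33-fold higher (log2 1.73, SE 0.31, 95% interval 1.07 to 2.40, limma adjusted p = 0.00178). The call held in 19 of 19 alternative analyses, with adjusted p between 3.53e-06 and 0.00953. These values rest on 627 to 810 reads per TRM library and 161 to 563 reads per library grown alone. In the authors' deposited table Adam8 was likewise higher with TRMs (log2 1.64, false discovery rate 5.88e-08).

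The Adam8 promoter is shown because Adam8 moved most among the members. Its 300 bases from 250 before to 50 after the start (RefSeq, GRCm38.p6, chr7:139992513-139992812, minus strand) are printed 5′ to 3′ with every CG in capitals.
Adam8: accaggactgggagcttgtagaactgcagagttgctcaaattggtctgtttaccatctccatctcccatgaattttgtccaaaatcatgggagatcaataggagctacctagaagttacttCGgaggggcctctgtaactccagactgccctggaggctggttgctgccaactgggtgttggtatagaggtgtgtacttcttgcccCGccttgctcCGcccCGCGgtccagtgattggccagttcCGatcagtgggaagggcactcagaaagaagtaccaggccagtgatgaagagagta
It holds 6 CG pairs, near the median of 7 over 32851 RefSeq promoters, where those of Adam15, Adam17 and Adam10 hold 25, 30 and 32. The hypoxia-inducible factor core ACGTG (in 19.6% of all promoters), its form GCGTG (32.4%) and the AP-1 site TGANTCA (7.81%) were searched on both strands. None of these motifs occurs in the Adam8 window. ACGTG occurred in Adam10 alone, GCGTG occurred in Adam10, Adam15 and Adam17, and TGANTCA occurred in none of the 4 promoters. Adam9 was not matched.

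Adam8 is also a leukocyte gene, so markers of the added cells were set beside it. Of 6 leukocyte markers 4 had values, and they summed to 67.0 to 75.5 CPM with TRMs, 28.6 to 74.6 CPM with monocytes and 28.1 to 36.8 CPM alone. Most of that sum was Cd53, a leukocyte tetraspanin, at 64.3 ± 4.19 CPM with TRMs and 26.5 ± 4.76 CPM alone (SD, n = 3 each; limma adjusted p = 0.00725). The leukocyte antigen Ptprc had 4.47, 0.501 and 0.875 CPM in the TRM replicates, 0.135, 0.565 and 0.021 CPM in the monocyte replicates and 3.46, 1.43 and 0.916 CPM in those grown alone, so it was no higher with TRMs. Ptprc had 0 reads in 1 library, monocyte replicate 3, and was called lower with monocytes than alone (limma adjusted p = 0.0361). Of 13 macrophage markers 7 had values, with sums of 161.5 to 299.5 CPM with TRMs, 170.2 to 238.6 CPM with monocytes and 144.1 to 232.3 CPM alone. The largest part of that sum was Cd14, at 127.6 CPM with TRMs, 122.6 CPM with monocytes and 166.1 CPM alone. Among the 7 the macrophage mannose receptor Mrc1 was called higher in both co-cultures, at 32.9 ± 9.27 CPM with TRMs, 39.2 ± 7.49 CPM with monocytes and 5.12 ± 0.211 CPM alone (SD, n = 3 each). It was 6.23-fold and 7.57-fold higher than alone (limma adjusted p = 1.46e-05 and 8.28e-06). The alveolar macrophage list (7 of 12 with values) summed to 185.7 to 198.5 CPM with TRMs, 176.3 to 213.9 CPM with monocytes and 202.6 to 226.4 CPM alone. None of the 7 neutrophil markers had a value. Most of the alveolar sum was Pparg (132.1 CPM with TRMs and 105.2 CPM alone) and Plet1 (49.7 CPM with TRMs and 94.3 CPM alone). Plet1 was called lower in both co-cultures (limma adjusted p = 0.00427 with TRMs and 0.0013 with monocytes). Siglecf (0.121 CPM against 1.44 CPM alone) and Chil3 (0.766 CPM against 10.1 CPM alone) were called lower with monocytes (limma adjusted p = 0.0413 and 0.0066). Neither was called with TRMs (0.204 and 0.339). The monocyte list (4 of 8 with values) summed to 37.1 to 46.2 CPM with TRMs, 30.9 to 51.8 CPM with monocytes and 44.3 to 55.5 CPM alone. In the cells grown alone most of that sum was Plac8, at 46.35 CPM, against 27.5 CPM with TRMs and 23.15 CPM with monocytes. Plac8 was called lower with monocytes (limma adjusted p = 0.0212) and not called with TRMs (0.151). In that list F13a1, a coagulation factor subunit made by monocytes and macrophages, was called higher in both co-cultures, at 13.4 ± 3.82 CPM with TRMs, 13.4 ± 5.38 CPM with monocytes and 0.960 ± 0.303 CPM alone (SD, n = 3 each). It was 13.9-fold and 13.5-fold higher than alone (limma adjusted p = 4.14e-05 and 3.61e-05), a larger fold than that of Adam8, as was that of Mrc1. Csf1r and Mertk stand in both the macrophage list and the substrate lists. Csf1r was at 5.91 ± 0.725 CPM with TRMs, 3.375 ± 0.375 CPM with monocytes and 3.02 ± 0.764 CPM alone (SD, n = 3 each). Its TRM libraries lay above all others, without a call against alone (limma adjusted p = 0.0613). Cd68 was likewise higher in every TRM library than in any grown alone, and was not called (limma adjusted p = 0.459). Mertk, Lyz2, Cd14 and Ctss overlapped between TRM and alone libraries. Within the TRM libraries the markers did not move together: in replicate 2 Ptprc, Laptm5, Lyz2 and Ctss were lowest, and Cd53, Mrc1, Mertk and F13a1 were highest. The part of sorted leukocytes in the Adam8 value was not tested.

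**Figure D3:**
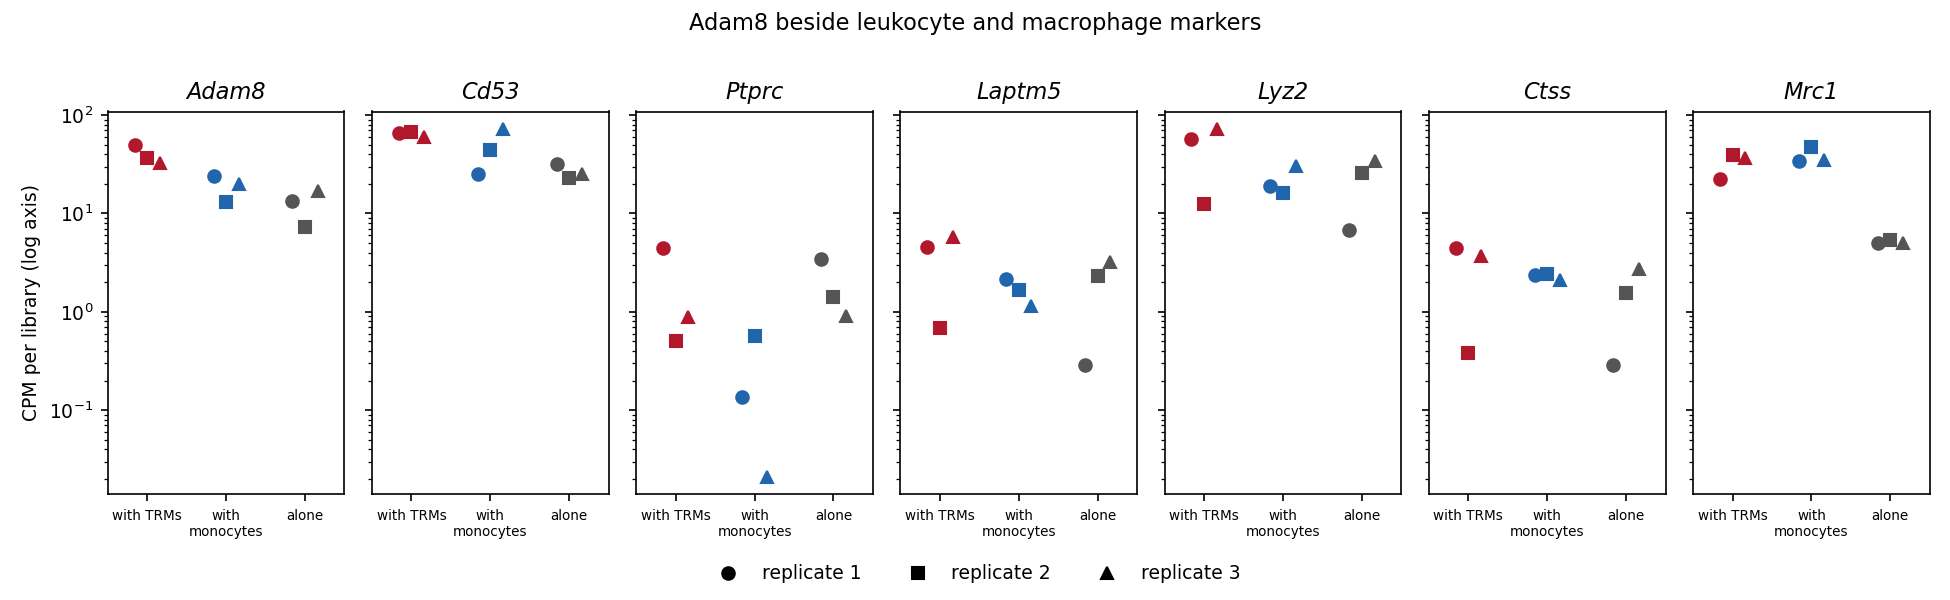
CPM per library on a log axis for Adam8 and 6 leukocyte or macrophage genes, with TRM, monocyte and alone libraries from left to right in each panel. Adam8, Cd53 and Mrc1 lie higher in every TRM library than in any grown alone, while Ptprc, Laptm5, Lyz2 and Ctss overlap between these groups.

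Adam9, a widely expressed sheddase that can free the EGF receptor ligand HB-EGF (ENSMUSG00000031555, chr8:24949611-25016927, minus strand), had 362, 455 and 545 CPM in the TRM replicates. It had 447.5, 485 and 457 CPM in the monocyte replicates and 332, 305 and 331 CPM in those grown alone. Every co-culture library was above every library grown alone, and the co-cultures overlapped each other. With TRMs Adam9 averaged 454 ± 91.5 CPM against 323 ± 15.6 CPM alone (SD, n = 3 each), 1.39-fold higher (log2 0.47, 95% interval 0.15 to 0.79, limma adjusted p = 0.0406). That call was lost without TRM replicate 2 (adjusted p = 0.122) or 3 (0.173), without monocyte replicate 2 (0.0541), without alone replicate 1 (0.0901), 2 (0.102) or 3 (0.098), and when libraries were scaled to plain totals (0.0764).

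Adam15, whose disintegrin domain binds integrins (ENSMUSG00000028041, chr3:89338542-89349996, minus strand), had 105, 113 and 99.1 CPM in the TRM replicates and 86.8, 78.1 and 87.4 CPM in those grown alone. The groups did not overlap, and the difference was not called (log2 0.33, 95% interval 0.03 to 0.63, limma adjusted p = 0.119). Adam17, also known as TACE, the main sheddase of TNF and of several EGF receptor ligands (ENSMUSG00000052593, chr12:21323509-21373632, minus strand), had 103, 103 and 105 CPM in the TRM replicates and 84.5, 80.0 and 98.0 CPM in those grown alone. These groups did not overlap either, and the difference was not called (log2 0.25, 95% interval -0.04 to 0.53, limma adjusted p = 0.233). Adam10, the alpha-secretase of APP and the first cutter of Notch receptors (ENSMUSG00000054693, chr9:70678997-70780229, plus strand), had 114, 117 and 155 CPM in the TRM replicates and 132, 114 and 136 CPM in those grown alone. Its groups overlapped, with a 95% interval of -0.36 to 0.36 for the log2 difference (limma adjusted p = 0.998).

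Nothing in the labels says that the library kit keeps strand, and without it overlapping genes of opposite strands share reads. Exons of Adam15 overlap an opposite-strand transcript, 4731419I09Rik, over 1263 bases, and its level was not analysed here. Exons of Adam17 overlap the opposite-strand gene Iah1 over 311 bases. Iah1 averaged 20.0 CPM with TRMs, 19.9 CPM with monocytes and 30.2 CPM alone, with no call against alone (limma adjusted p = 0.119 with TRMs and 0.0795 with monocytes), and its part in the Adam17 value was not tested. Adam8 overlaps the opposite-strand transcript Gm16201 over 46 bases.

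With monocytes, Adam9 and Adam15 rose among the 5 members and none fell, where 27.3% of all genes tested were called in either direction, 14.7% higher and 12.7% lower. The same libraries grown alone serve this comparison and the TRM comparison, so the values are given side by side without a measure of overlap. Adam9 averaged 463 ± 19.3 CPM with monocytes against 323 ± 15.6 CPM alone (SD, n = 3 each), 1.43-fold higher (log2 0.52, 95% interval 0.20 to 0.84, limma adjusted p = 0.0187). That call was lost without monocyte replicate 2 (0.0615), alone replicate 2 (0.0529) or alone replicate 3 (0.0511), and it held without the outlying monocyte replicate 3 (0.0319). Adam15 had 137, 136 and 107 CPM in the monocyte replicates, all above the 78.1 to 87.4 CPM of the cells grown alone. It averaged 127 ± 16.7 CPM against 84.1 ± 5.20 CPM (SD, n = 3 each), 1.50-fold higher (log2 0.58, SE 0.14, limma adjusted p = 0.00716), and was called in 19 of 19 alternatives. Without monocyte replicate 3 the log2 difference of Adam15 was 0.70 (limma adjusted p = 0.00256). Groups that lay wholly above those grown alone were seen for Adam9 and Adam15, and for 21.3% of all genes.

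The other members were not called with monocytes. Adam8 averaged 19.1 ± 5.51 CPM against 12.5 ± 4.86 CPM alone (log2 0.65, 95% interval -0.01 to 1.31, limma adjusted p = 0.139). Adam10 had 107, 139 and 96.2 CPM in the monocyte replicates, with an interval of -0.54 to 0.19 for the log2 difference (limma adjusted p = 0.475). Adam17 had 99.3, 94.4 and 83.4 CPM, with an interval of -0.21 to 0.37 (limma adjusted p = 0.701). The monocyte libraries of all 3 genes overlapped those grown alone. In the authors' deposited table for monocytes, Adam9 (log2 0.50) and Adam15 (log2 0.57) had false discovery rates of 0.00419 and 0.00495, and Adam8 had 0.197.

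**Figure D4:**
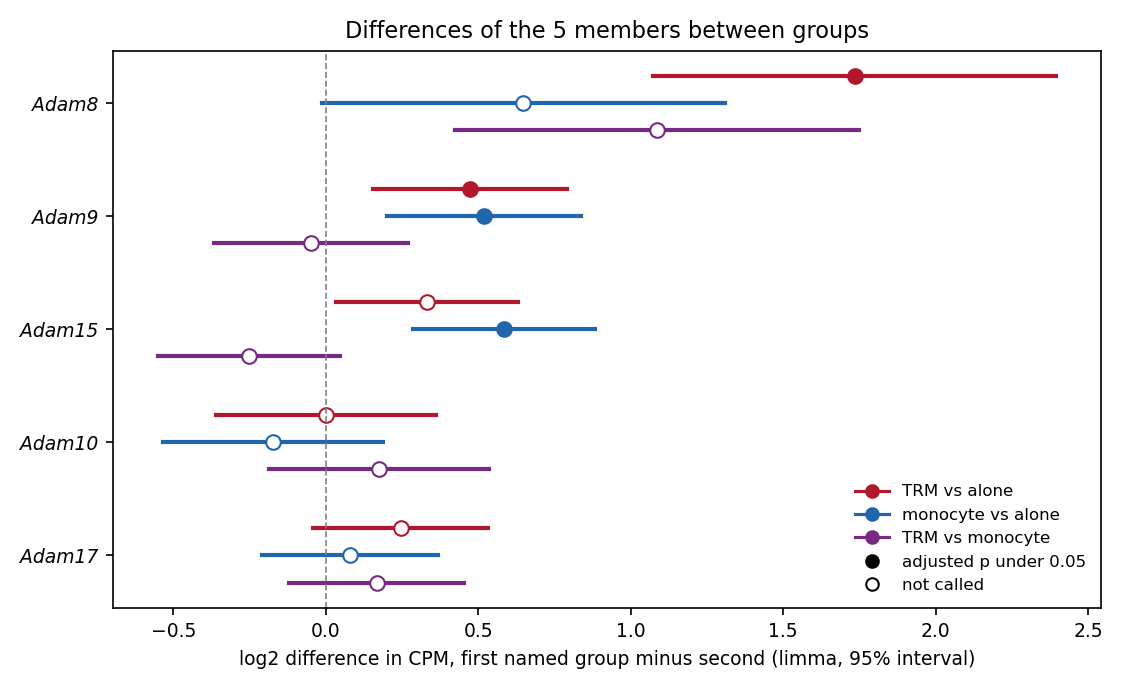
Log2 difference in CPM with its 95% interval (limma) for each member in TRM against alone, monocyte against alone and TRM against monocyte co-culture, from top to bottom for each gene. Filled points are called: Adam8 with TRMs, Adam9 with both, Adam15 with monocytes, and none between the co-cultures.

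Between the co-cultures no member was called by limma, where 0.398% of all genes tested (49) were called and 1437 genes had an unadjusted p under 0.05. The largest difference was in Adam8, at 39.9 ± 8.73 CPM with TRMs and 19.1 ± 5.51 CPM with monocytes (SD, n = 3 each), 2.12-fold (log2 1.09, 95% interval 0.42 to 1.75). Its TRM libraries were all above its monocyte libraries, and its limma adjusted p of 0.151 (unadjusted 0.00351, the sole member under 0.05, with none called by edgeR) ranged from 0.0312 with DESeq2, where it was called, to 0.444 without TRM replicate 1. So the higher Adam8 with TRMs than alone was called, and a difference between TRMs and monocytes was not called in limma. Adam17 libraries with TRMs also lay above those with monocytes (log2 0.17, limma adjusted p = 0.701), and such non-overlap in this direction was seen for 7.55% of all genes. Adam9 (log2 -0.05, 95% interval -0.37 to 0.27), Adam15 (log2 -0.25, -0.55 to 0.05) and Adam10 (log2 0.17, -0.19 to 0.54) overlapped between the co-cultures, and none was called.

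Across the 9 libraries Adam8 and Adam17 had the highest correlation of log2 values among the members (Pearson r = 0.81), followed by Adam9 and Adam15 (r = 0.71). The other 8 pairs lay between -0.17 and 0.50, and Adam10 was at most 0.36 with any other member. The 9 libraries contain all 3 groups, so these values include the group differences and are descriptions. Among 9885 genes of at least 5 CPM, those most like Adam8 were Cebpd, a C/EBP transcription factor (r = 0.971), Pitpnm3 (0.969) and Proc, which encodes protein C (0.959). Cebpd was at 75.6 ± 12.6 CPM with TRMs and 40.7 ± 8.53 CPM alone (SD, n = 3 each), a difference that its choice by correlation with Adam8 favours. Those most like Adam9 were Spcs3, a signal peptidase subunit (0.980), Tnfaip8 (0.974) and Usp28, a deubiquitinase (0.970). Adam15 was most like Afg3l1 (0.986), the splicing protein gene Hnrnpa2b1 (0.977) and the chromatin remodelling gene Smarcd3 (0.974). Adam17 was most like Ankzf1 (0.962), the phospholipase C gene Plcb3 (0.940) and Fbxl12 (0.926), and Adam10 was most like Inpp5f (0.955), Btbd3 (0.909) and Herc4 (0.907).

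Genes listed for the maturation, transport or inhibition of ADAM10 or ADAM17 were called in both directions. Of 25 listed, 21 were tested, and with TRMs 7 rose and 2 fell, with a median log2 difference of 0.11 against -0.0019 over all genes. These are 42.9% of the 21, against 18.4% called over all genes. Without TRM replicate 2 the count fell to 5, all higher. With monocytes 9 rose and 3 fell (57.1%, against 27.3% over all genes), with a median of -0.17 against -0.016 over all genes. Between the co-cultures none of the 21 was called by limma or edgeR, 2 (Pcsk6 and Timp2) had an unadjusted p under 0.05, and Pcsk6 was called by DESeq2. The furin protease, which removes the pro-domain of ADAM10 and ADAM17, averaged 609 ± 44.9 CPM with TRMs, 507.5 ± 98.4 CPM with monocytes and 325 ± 46.3 CPM alone (SD, n = 3 each). Furin was 1.88-fold and 1.55-fold higher than alone (limma adjusted p = 0.00149 and 0.00931). Pcsk6, another convertase, was 1.77-fold lower with monocytes (limma adjusted p = 0.00438) and not called with TRMs (0.916).

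The carriers of ADAM17 are the iRhoms Rhbdf1 and Rhbdf2, stabilised by Frmd8. Frmd8 averaged 282 ± 15.2 CPM with TRMs, 282 ± 31.5 CPM with monocytes and 169 ± 22.8 CPM alone (SD, n = 3 each). It was 1.67-fold higher in both co-cultures (limma adjusted p = 0.00249 and 0.00171). Rhbdf2 averaged 123 CPM with TRMs, 120 CPM with monocytes and 82.4 CPM alone, and was called in both (limma adjusted p = 0.0345 and 0.0384). The TRM call was lost without TRM replicate 1 (0.0674) or 2 (0.149) or alone replicate 1 (0.0752) or 2 (0.118), and the monocyte call without monocyte replicate 1 (0.14) or alone replicate 1 (0.0782) or 2 (0.132). Both were lost with library totals (0.0632 and 0.0553), and the monocyte call also when just the 2 compared groups were fitted (0.0602). Rhbdf1 was at 164.5, 137 and 160 CPM in the same order of groups and was not called. P4hb, a protein disulfide isomerase, was 1.56-fold and 1.60-fold higher than alone (limma adjusted p = 0.00575 with TRMs and 0.00291 with monocytes).

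The carriers of ADAM10 are the TspanC8 tetraspanins, of which 5 of 6 were tested. Tspan17 averaged 35.2 ± 3.40 CPM with TRMs against 21.8 ± 1.90 CPM alone (SD, n = 3 each; limma adjusted p = 0.0122), a call lost without TRM replicate 3 (0.0516) or alone replicate 3 (0.0621). Tspan5 was at 85.0 CPM with TRMs against 112 CPM alone (limma adjusted p = 0.0484), a call lost when any of the TRM libraries, any of those grown alone or monocyte replicate 2 was left out (0.0611 to 0.163) and with the replicate block (0.0575). Tspan14 was at 102 CPM with monocytes against 143 CPM alone (limma adjusted p = 0.0336), a call lost without monocyte replicate 1 (0.0635) or 2 (0.0961) or alone replicate 1 (0.128) or 3 (0.1). Tspan15 and Tspan33 were called in neither co-culture.

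The list also holds genes of metalloprotease inhibitors (TIMPs), not all of which act on ADAM10 or ADAM17. Timp1 averaged 20.9 ± 1.81 CPM with TRMs, 26.2 ± 3.80 CPM with monocytes and 5.66 ± 1.49 CPM alone (SD, n = 3 each). It was 3.76-fold higher with TRMs and 4.70-fold higher with monocytes (limma adjusted p = 0.000121 and 3.31e-05). Timp2 was 1.79-fold higher with monocytes (961 ± 162 CPM against 532 ± 42.1 CPM, SD, n = 3 each; limma adjusted p = 0.00205) and not called with TRMs (0.22). Timp3, the inhibitor known to act on ADAM17, was at 0.803 ± 0.796 CPM with TRMs, 0.825 ± 0.369 CPM with monocytes and 2.29 ± 0.711 CPM alone (SD, n = 3 each) and was not called (limma adjusted p = 0.115 and 0.177).

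Genes of known ADAM substrates were called in both directions. Over 5 lists 53 were tested, 32.1% of them called with TRMs (18.4% over all genes) and 39.6% with monocytes (27.3% over all genes). With TRMs 8 were higher and 9 lower, with a median log2 difference of 0.02 against -0.0019 over all genes. The number called higher fell to 3 without TRM replicate 2, 5 without alone replicate 1 and 4 without alone replicate 3. With monocytes 6 were higher and 15 lower, with a median of -0.18 against -0.016 over all genes, and the number lower fell to 8 without alone replicate 3. Of these calls, 11 with TRMs (3 higher, 8 lower) and 12 with monocytes (4 higher, 8 lower) held in all 19 alternatives.

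**Figure D5:**
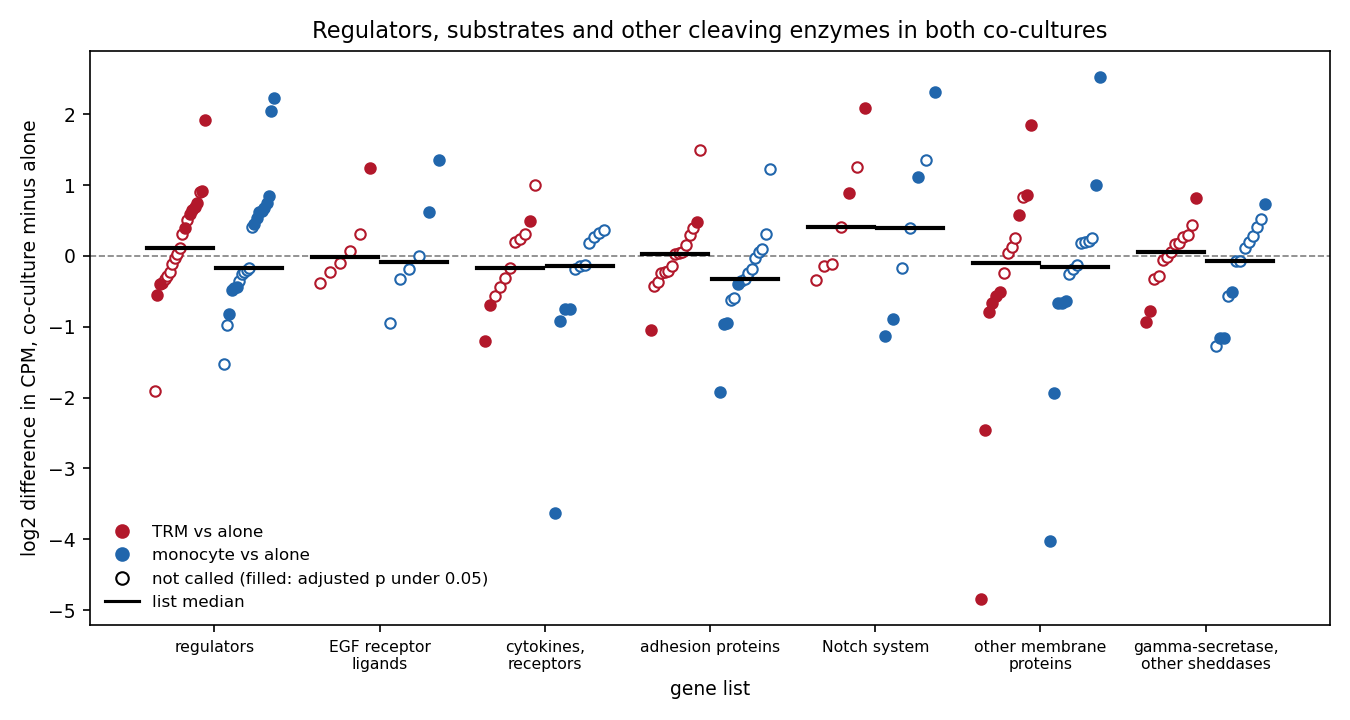
Log2 difference in CPM of every tested gene in 7 lists, TRM against alone to the left of monocyte against alone in each list, with called genes filled and the list median as a bar. Dll1 is the highest point with TRMs and Axl the highest with monocytes.

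Of the EGF receptor ligands, 1 of 6 was called with TRMs and 2 of 6 with monocytes, shares near those over all genes. Btc, which encodes betacellulin, averaged 39.9 ± 3.31 CPM with TRMs, 43.1 ± 6.62 CPM with monocytes and 17.6 ± 6.92 CPM alone (SD, n = 3 each; limma adjusted p = 0.00267 and 0.0011). Epiregulin (Ereg) was called with monocytes (77.0 CPM against 49.2 CPM, limma adjusted p = 0.0391), a call lost without TRM replicate 2 (0.0515), monocyte replicate 2 (0.171) or alone replicate 1 (0.109) or 3 (0.132). The ADAM17 substrates Tgfa, Areg and Hbegf were called in neither co-culture. Hbegf was at 380 CPM with TRMs, 393 CPM with monocytes and 497 CPM alone. Every co-culture library of Hbegf lay below every library grown alone, without a call (limma adjusted p = 0.0623 with TRMs and 0.081 with monocytes). For Tgfa the TRM libraries lay above all others (limma adjusted p = 0.0804 against alone), and Areg overlapped between the groups.

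Among 11 cytokines, chemokines and receptors, 1 was called higher and 2 lower with TRMs, and none higher and 4 lower with monocytes, where edgeR and DESeq2 called none higher either and Tnfrsf1a had an unadjusted p under 0.05. The limma calls are 27.3% and 36.4% of the 11, against 18.4% and 27.3% called over all genes. Cxcl16, a membrane-bound chemokine cut by ADAM10, was at 160 ± 19.0 CPM with TRMs, 139 ± 30.2 CPM with monocytes and 257 ± 12.9 CPM alone (SD, n = 3 each; limma adjusted p = 0.00867 and 0.00111). Kitl, the ligand of KIT, was 2.30-fold lower with TRMs (limma adjusted p = 0.00066) and 1.68-fold lower with monocytes (0.00919, or 0.0518 without alone replicate 3). The interferon gamma receptor Ifngr1 was 1.68-fold lower with monocytes (limma adjusted p = 0.00168). Tnfrsf1b, a TNF receptor, was the gene called higher with TRMs (163 CPM against 117 CPM, limma adjusted p = 0.0475). That call was lost without TRM replicate 2 (0.158) or 3 (0.137), monocyte replicate 2 (0.0643) or alone replicate 1 (0.201) or 2 (0.109), with library totals (0.0832) or DESeq2 size factors (0.0507), with the replicate block (0.0513) and in edgeR (0.0596). Tnf itself was at 1.45 ± 1.08 CPM with TRMs, 0.257 ± 0.205 CPM with monocytes and 2.19 ± 1.61 CPM alone. Its lower value with monocytes (limma adjusted p = 0.037) was lost without TRM replicate 2 (0.0583), monocyte replicate 3 (0.0743) or alone replicate 2 (0.134) or 3 (0.108), in limma-voom (0.0832) and when just the 2 compared groups were fitted (0.0752).

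Among genes of 15 adhesion proteins, 1 was higher and 1 lower with TRMs, and 4 were lower with monocytes. These shares of 13.3% and 26.7% were no higher than the 18.4% and 27.3% called over all genes. The desmosomal cadherin Dsg2, a substrate of ADAM17, was at 95.8 ± 6.19 CPM with TRMs, 52.7 ± 4.45 CPM with monocytes and 198 ± 10.8 CPM alone (SD, n = 3 each; limma adjusted p = 0.000137 and 4.95e-06). E-cadherin (Cdh1), cut by ADAM10, was at 869 ± 258 CPM with monocytes against 1650 ± 97.6 CPM alone (SD, n = 3 each; limma adjusted p = 0.00173), and was not called with TRMs (0.401). Nectin4 was 1.93-fold lower with monocytes (limma adjusted p = 0.00234). Sdc1 was called higher with TRMs (limma adjusted p = 0.046) and lost that call when any TRM library except replicate 3, any library grown alone or monocyte replicate 2 was left out (0.0618 to 0.18), with library totals (0.102) or DESeq2 size factors (0.055) and with log2(value + 1) (0.053). Sdc4 was called lower with monocytes (limma adjusted p = 0.0386) and lost that call without monocyte replicate 1 (0.1) or 2 (0.0598) or alone replicate 1 (0.0814) or 3 (0.165) and when just the 2 compared groups were fitted (0.0585).

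Among 7 genes of the Notch system, 2 were higher and none lower with TRMs, and 2 were higher and 2 lower with monocytes. These are 28.6% and 57.1% of the 7, against 18.4% and 27.3% called over all genes. The ligand Dll1 was at 29.0 ± 5.46 CPM with TRMs, 34.6 ± 10.3 CPM with monocytes and 7.03 ± 2.25 CPM alone (SD, n = 3 each), 4.23-fold and 4.97-fold higher (limma adjusted p = 0.000336 and 0.000111). The ligand Jag2 was 1.85-fold higher with TRMs (limma adjusted p = 0.012, or 0.058 without TRM replicate 2 and 0.067 without alone replicate 3) and 2.17-fold higher with monocytes (0.00221). Jag1 was called in neither. Notch1 was 1.85-fold lower with monocytes (limma adjusted p = 0.0116, or 0.0676 without alone replicate 3), and Notch3 was 2.19-fold lower (0.0372). The Notch3 call was lost without TRM replicate 2 (0.0544), monocyte replicate 2 (0.15) or alone replicate 1 (0.126) or 3 (0.129). With TRMs none of the 4 Notch receptors was called by limma, edgeR or DESeq2, and 0 had an unadjusted p under 0.05.

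Among genes of 14 other membrane proteins, 3 were higher and 6 lower with TRMs, and 2 were higher and 5 lower with monocytes (64.3% and 50% called, against 18.4% and 27.3% over all genes). The receptor kinase Axl was at 650.5 ± 236 CPM with TRMs, 1019 ± 311 CPM with monocytes and 186 ± 83.1 CPM alone (SD, n = 3 each), 3.60-fold and 5.76-fold higher (limma adjusted p = 0.00306 and 0.000265). Fgfr2 was 5.50-fold lower with TRMs and 3.83-fold lower with monocytes (limma adjusted p = 0.000214 and 0.000779). The receptor Met, cut by ADAM10 and ADAM17, was 1.73-fold lower with TRMs (limma adjusted p = 0.00605) and 1.56-fold lower with monocytes (0.0137, or 0.0781 without alone replicate 3). The phosphatase Ptprk was 1.42-fold lower with TRMs (limma adjusted p = 0.011) and 1.58-fold lower with monocytes (0.00159).

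The membrane stubs that ADAM proteases leave are cut further by gamma-secretase. Its subunit gene Aph1a was not called by limma in either co-culture, had an unadjusted p under 0.05 in both, and was called higher with monocytes by edgeR and DESeq2. In the list of 13 genes for gamma-secretase and other membrane proteases, 1 was higher and 2 lower with TRMs, and 1 was higher and 3 lower with monocytes. These shares of 23.1% and 30.8% lay near the 18.4% and 27.3% called over all genes. Mmp14, a membrane-bound matrix metalloprotease, was at 285 ± 17.2 CPM with TRMs, 272 ± 53.3 CPM with monocytes and 162 ± 15.9 CPM alone (SD, n = 3 each; limma adjusted p = 0.00214 and 0.00292). Bace2, a beta-secretase, was at 88.9 CPM with TRMs, 78.6 CPM with monocytes and 169 CPM alone (limma adjusted p = 0.0284 and 0.00644), and Mmp15 was at 175 CPM, 132 CPM and 295 CPM in the same groups (limma adjusted p = 0.0318 and 0.0025). With TRMs both calls were lost without TRM replicate 2 or 3 or alone replicate 1 or 3 (adjusted p 0.0864 to 0.135), and the count then was 1. Sppl2a, an intramembrane protease, was lower with monocytes (limma adjusted p = 0.0116, or 0.0552 without alone replicate 1 and 0.0552 without alone replicate 3).

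Other ADAM genes of the table were scarce, except Adam12. Its mean CPM, not corrected for transcript length, lay above that of Adam8 in every group. Of 8 beside the members, 6 passed the filter on low reads. Adam12, which is expressed in regenerating muscle and in tumours, was at 42.1 ± 8.38 CPM with TRMs, 41.8 ± 6.10 CPM with monocytes and 22.2 ± 6.04 CPM alone (SD, n = 3 each; limma adjusted p = 0.0111 and 0.00783). The TRM call was lost without TRM replicate 2 (0.0624) or alone replicate 1 (0.0535). Adam11 was at 1.59 CPM with monocytes against 4.21 CPM alone (limma adjusted p = 0.0297), a call lost without monocyte replicate 1 (0.0859) or alone replicate 1 (0.0853) or 3 (0.135) and when just the 2 compared groups were fitted (0.0607). The remaining 4, Adam22, Adam23, Adam28 and Adam32, averaged at most 2.08 CPM in any group. None of these 4 was called by limma, edgeR or DESeq2, and Adam32 had an unadjusted p under 0.05 with monocytes, the sole such value among them.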

How the data were processed

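RNA came from GFP-positive cells sorted from pooled spheroids, with SMART-Seq v4 cDNA made from 1 ng of RNA, per the labels' protocols. STAR 2.5, edgeR and the build mm10 appear in the submitters' processing notes. No source used here names the counting tool or the annotation behind the table. The authors' deposited table of gene levels is a normalised signal in CPM. Converting each value back to reads with its scaled library size gave whole reads plus 0.5 read for 100% of 111051 values, within 1e-06 of a read. The authors' deposited comparison tables hold log2 fold changes, a likelihood ratio score and p-values with false discovery rates, per the file headers, and were used only where named. The lowest total of a gene was 91 reads.

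Computation used R 4.3.3, limma 3.58.1, edgeR 4.0.16, DESeq2 1.42.0 and Python 3.11.15. edgeR's filterByExpr (minimum count 10, minimum total 15) kept 12326 genes and removed 13. The log2 values were fitted in limma over all 9 libraries, with a trend of the prior variance on level, group means as terms and 6 residual degrees of freedom. Tests were two-sided with Benjamini-Hochberg adjustment over all genes. Fold changes are on the log2 scale of values that include 0.5 read, which understates changes of low genes. The procedure was tested on simulated data. Replicates differed by far more than sampling noise (chi-square per gene 21.1 to 90.5), so none was merged.

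The members and lists were chosen with earlier results of these data known. Named genes are the 5 members, up to 4 called genes per list and contrast by smallest adjusted p, and the 3 genes most correlated with each member. The iRhoms, TspanC8 tetraspanins, convertases, Timp3, Aph1a and uncalled ligands and receptors were added by role after their values were seen. Some listed genes are not reported here by name. Transcripts are from GENCODE M21 and promoters from RefSeq (GRCm38.p6), where 4 of 5 members matched.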

Additional observations from a re-analysis of the deposited data

Results flagged for a closer look

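Between the co-cultures, 2 genes of the lists differed by the test of that difference itself. Dsg2, a desmosomal cadherin, was higher with TRMs than with monocytes (95.8 ± 6.19 CPM against 52.7 ± 4.45 CPM, SD, n = 3 each; log2 0.86, limma adjusted p = 0.0148), while both lay below the cells grown alone (198 ± 10.8 CPM). The call was lost without TRM replicate 1 (0.0772), 2 (0.0871) or 3 (0.0507). Adamtsl4, an ADAMTS-like matrix protein gene, was higher with TRMs than with monocytes (135.9 ± 11.8 CPM against 62.5 ± 18.2 CPM, SD, n = 3 each; log2 1.16, limma adjusted p = 0.0254), and stood at 49.1 ± 3.12 CPM alone. Its call was lost without TRM replicate 1 (0.115), 2 (0.116) or 3 (0.0774) or monocyte replicate 2 (0.0695).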

How the results depend on the processing

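The alternatives were limma-voom, edgeR's quasi-likelihood test and DESeq2 on the recovered reads, other scalings, log2(value + 1), other filters, a fit of just the compared groups, a replicate block and leaving out each library. Adam8 with TRMs and Adam15 with monocytes were called in all 19. Adam9 with TRMs was called in 12 of 19: its log2 difference was 0.39 with library totals (adjusted p = 0.0764) and 0.33 to 0.63 with a library left out. With monocytes Adam9 was called in 16 of 19 (0.48 to 0.54 with a library left out). Adam8 between the co-cultures was called by DESeq2 (log2 1.07, adjusted p = 0.0312). The log2 difference of Adam10 with TRMs changed sign with DESeq2 (-0.0019), library totals (-0.085), DESeq2 size factors (-0.012) and a library left out (-0.14 to 0.081). That of Adam9 between the co-cultures ranged from -0.19 to 0.11 with a library left out, positive without TRM replicate 1. The cause of these changes was not tested.

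Genes called between the co-cultures numbered 86 with limma-voom, 329 with DESeq2, 75 with log2(value + 1) and 79 with the replicate block, against 49. With a library left out they ranged from 0 (without TRM replicate 2) to 134 (without monocyte replicate 3), from 1219 to 2593 for TRMs against alone and from 2239 to 3529 for monocytes against alone. List members called then ranged, for TRMs, from 5 to 10 regulators, 11 to 19 substrates, 0 to 1 other ADAM genes and 1 to 3 gamma-secretase and other sheddase genes, for monocytes from 8 to 13, 13 to 24, 1 to 3 and 3 to 5, and between the co-cultures from 0 to 3 substrates. Deviations of same-numbered libraries correlated at r from -0.02 to 0.43, against -0.40 to 0.26 for libraries of different numbers. Not every library correlated best with its own number, so the numbers were not taken as pairs. Whether same-numbered libraries share an effect was not tested. The replicate block changed no call of a member. With it 2392 genes were called for TRMs against alone (2262 without it) and 3511 for monocytes against alone (3366 without it). Adam8 rested on 161 to 810 reads per library, the fewest of the members.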

Other observations

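The ADAMTS genes, secreted relatives of the ADAM proteases that act on the extracellular matrix, held the largest rises among related genes. Of 15 tested, 3 were higher and none lower with TRMs in limma (Adamts9 had an unadjusted p under 0.05 and was called lower by edgeR and DESeq2), and 3 were higher and 2 lower with monocytes. These shares of 20% and 33.3% lay near the 18.4% and 27.3% called over all genes. Adamts4, an aggrecanase, had 39.2 ± 18.0 CPM with TRMs, 53.6 ± 32.9 CPM with monocytes and 3.18 ± 3.02 CPM alone (SD, n = 3 each), 16.1-fold and 20.1-fold higher (log2 4.01 and 4.33, limma adjusted p = 0.000947 and 0.000373). Adamts7 had 5.43 ± 3.24 CPM with TRMs, 7.24 ± 2.31 CPM with monocytes and 0.89 ± 0.873 CPM alone (SD, n = 3 each; limma adjusted p = 0.0249 and 0.00745). Its TRM call was lost without TRM replicate 2 (0.0941) or 3 (0.102) and in limma-voom (0.0521). Adamtsl4 was 2.76-fold higher with TRMs (limma adjusted p = 0.000231) and not called with monocytes (0.273). Adamts17 was 5.64-fold lower with monocytes (limma adjusted p = 0.00931), at a low level on 419 reads in all libraries together. It had 0.602 ± 0.379 CPM with monocytes and 2.98 ± 0.102 CPM alone (SD, n = 3 each). Adamts9 was 2.00-fold lower with monocytes (0.0185), a call lost without monocyte replicate 1 (0.0628) or alone replicate 1 (0.0906) or 3 (0.0848).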
